A study of Mus musculus with 4 samples.

Results

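Protein phosphatase 2A (PP2A) is held in check, tagged and assembled by a small set of proteins that are not part of its core enzyme, and the transcripts of 9 such genes were followed here in macrophages in which the gene of the main catalytic subunit was deleted. They were the inhibitor genes Set, Anp32a, Anp32e, Ensa and Arpp19, the methylation enzyme genes Ppme1 and Lcmt1, and Tiprl and Igbp1, whose products bind free catalytic subunits. The genes were chosen by name: a feature of the deposited array table counted for a gene if the platform annotation gave it that symbol alone. Each of the 9 had exactly 1 such feature, and all 9 were among the 12542 genes tested, of 22180 genes with a feature of their own.

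PP2A is a serine/threonine phosphatase built from a scaffold, a regulatory and a catalytic subunit, and it reverses many of the phosphorylations that Toll-like receptor signalling sets in macrophages. SET and the ANP32 proteins are acidic proteins that bind and inhibit the enzyme and also work on histones, while ENSA and ARPP19 inhibit PP2A holding a B55 regulatory subunit once the greatwall kinase has phosphorylated them. LCMT1 methylates the last residue of the catalytic subunit, PPME1 removes that methyl group, and the alpha4 protein made from Igbp1 and the TIPRL protein hold catalytic subunits of PP2A and of the related phosphatases PP4 and PP6 outside the assembled enzymes.

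The samples were 4 arrays of mouse bone marrow derived macrophages, which are phagocytes grown from marrow precursors, here over 6 days in medium with L-cell supernatant. The control genotype, PP2ACαfl/fl, carried floxed alleles of PP2ACα (the gene Ppp2ca) without Cre. The knockout genotype, PP2ACαfl/fl;lyM-Cre, carried the same alleles and a Cre active in myeloid cells, so that exon 1 is removed. The labels leave lyM unexplained; here it is taken to be the common Cre line driven from the lysozyme gene Lyz2. Every culture, control included, received 100 ng/ml of lipopolysaccharide (LPS), a bacterial cell wall component, for 2 hours, so the comparison is between genotypes after LPS and holds no unstimulated cells. Each genotype had 2 biological replicates. The labels do not say whether these came from separate mice, and give no age or strain, so the p-values measure only the spread between these arrays.

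All values are the authors' log2 expression values, in which 1 unit is a doubling, and a difference is knockout minus control. Genes whose mean reached the median of all features, 3.53, were tested with limma, a linear model that shares information on the spread across genes. Passing, rising and falling mean a Benjamini-Hochberg adjusted p under 0.05 over all genes tested. Ppp2ca, the deleted gene, read 8.25 and 7.59 in control and 4.36 and 3.39 in knockout, a difference of -4.04 (SE 0.36, limma adjusted p = 0.0076). Without control replicate 1 that difference was -3.71 (adjusted p = 0.0503), and averaged over all features of the gene it was -2.14. Of 11 macrophage markers on the array 10 were above the filter level; Csf1r, Adgre1, Cd68 and Itgam had values of at least 10.9 on every array, while Cd163 was below it. The Fc receptor gene Fcgr1 rose by 0.94 (limma adjusted p = 0.016), the lysozyme gene Lyz2 fell by 5.19 (adjusted p = 0.00095), and the other 8 tested markers did not pass. Below that level lay 7 of 9 markers of lymphocytes, 4 of 5 of mast cells and basophils, 4 of 7 of stromal cells, 5 of 8 of neutrophils, 3 of 6 of dendritic cells and 3 of 4 of erythroid cells and megakaryocytes. Among the others Pf4, of the megakaryocytic list (9.23 and 8.79 in control, 8.81 and 8.83 in knockout), and Cd209a, of the dendritic list (6.93 and 6.67 in control, 6.61 and 6.90 in knockout), lay well above it, and their groups overlapped. None of the tested markers of neutrophils, dendritic cells, lymphocytes, stromal cells, mast cells and basophils or erythroid cells and megakaryocytes passed, beside 6.79% of all tested genes. An unadjusted limma p under 0.05, which 24.7% of all tested genes had, was found for 1 each of neutrophils, dendritic cells, lymphocytes and mast cells and basophils. Ltf (0.34), Ccr7 (0.40) and Cd4 (0.49), in that order, were higher on both knockout arrays, and Gata2 (-0.24) was lower on both. Cd4 read 5.81 and 6.01 in control and 6.36 and 6.43 in knockout (limma adjusted p = 0.057), and Ccr7 had an adjusted p = 0.064. In bulk RNA, fewer cells of a type and less RNA per cell cannot be told apart.

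Set was the single gene among the 9 that passed the test, and it was lower in knockout macrophages. Of the 9, 4 genes, Set, Anp32e, Ensa and Ppme1, were lower on both knockout arrays than on either control array, 3 (Anp32a, Arpp19 and Tiprl) were higher on both, and Lcmt1 and Igbp1 overlapped. Such separation is common in these data: 55.3% of all tested genes had groups that did not overlap, 26.5% lower and 28.8% higher in knockout. The count of 1 gene of 9 passing stands beside 6.79% of all tested genes, 3.49% lower and 3.30% higher. The same 4 lower genes had an unadjusted p under 0.05, 4 of 9, against 24.7% of all tested genes. None of the 9 reached the 1.5-fold cutoff that the series' design text states, which 5.24% of all tested genes did. The median difference over the 9 was -0.03, against 0.0076 over all tested genes.

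**Figure D1:**
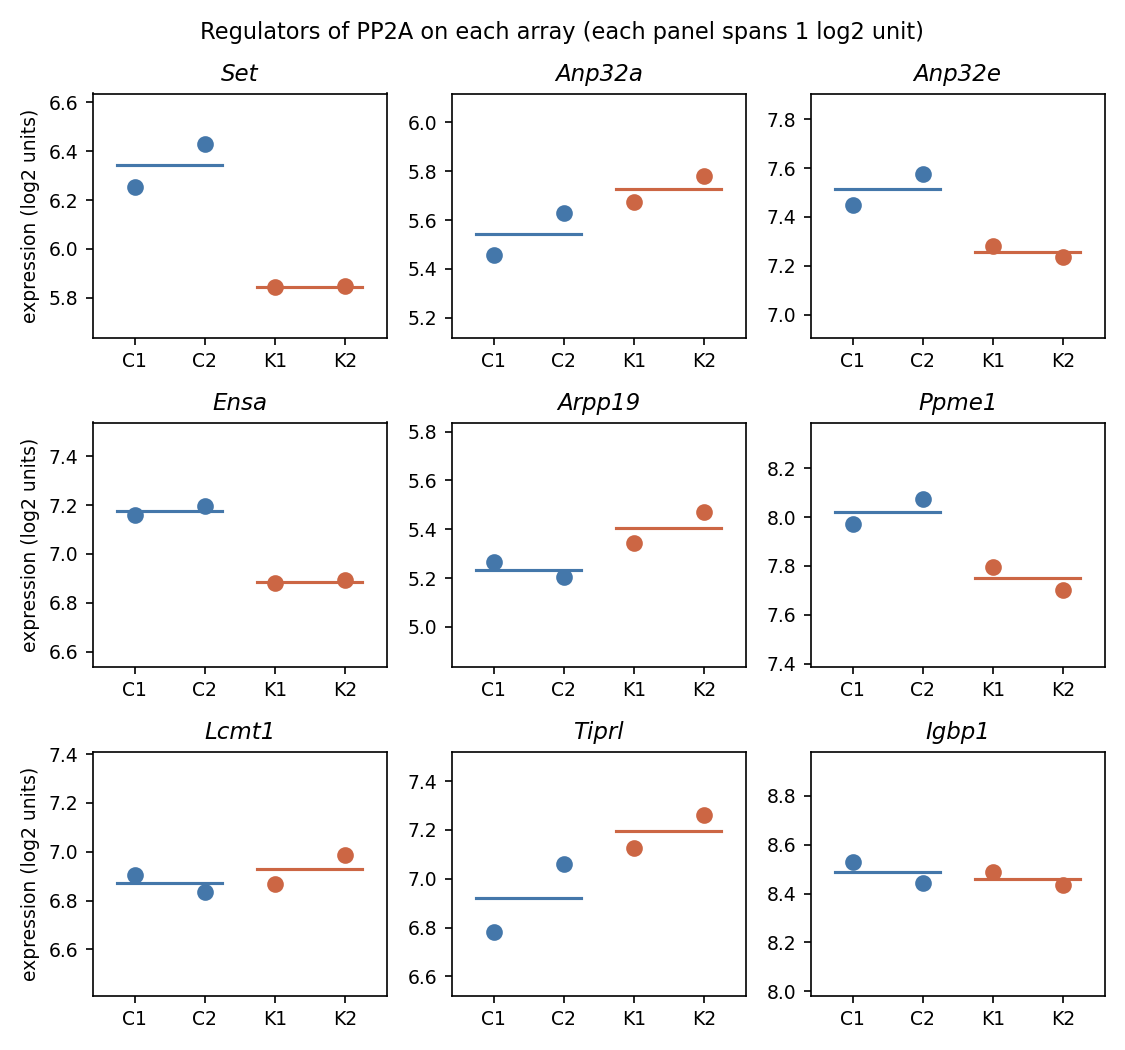
Expression of the 9 genes in log2 units on control arrays 1 and 2 (C1, C2, blue) and knockout arrays 1 and 2 (K1, K2, orange), with group means as lines and every panel spanning 1 log2 unit. Set drops from a control mean of 6.34 to a knockout mean of 5.85, Ensa shows the tightest replicates of the genes whose groups part, and the groups of Lcmt1 and Igbp1 overlap.

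Set encodes the inhibitor also known as I2PP2A, which binds the PP2A catalytic subunit and doubles as a histone chaperone. It read 6.25 and 6.43 on the control arrays and 5.84 and 5.85 on the knockout arrays. The knockout arrays were thus nearly equal and both below the lower control. The control mean was 6.34 ± 0.12 and the knockout mean 5.85 ± 0.0035 (SD over 2 arrays). Set thus fell by 0.50 log2 units (SE 0.10, 95% interval -0.74 to -0.25), or 1.41-fold, with a limma adjusted p = 0.047. This placed it 819th by p among the 852 genes that passed, close to the threshold. With any 1 array left out the difference ranged from -0.59 to -0.41 and the call was lost, with adjusted p-values between 0.088 and 0.21, as it was with no filter (limma adjusted p = 0.11) and without pooling of variance across genes (0.23).

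A further feature of the array is annotated to both Set and Gm7085, a pseudogene, and so was outside the choice by single symbol. It read 10.07 and 10.00 in control and 9.67 and 9.48 in knockout, again with both knockout arrays below both control arrays. Its difference was -0.46 (SE 0.11, 95% interval -0.77 to -0.15), or 1.37-fold lower, close in size to that of Set's own feature. In a fit over all 20673 features that passed the filter, 15 features passed and neither of these did, with adjusted p = 0.18 for the shared feature and 0.16 for Set's own. Both features come from the same RNA and the same arrays, so they are not independent cultures, and signal from the pseudogene cannot be told apart from that of Set in the shared one.

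Predicted genes, Rik clones, small RNAs and olfactory and vomeronasal receptor genes were left out of a search for genes like Set. The 3 other tested genes whose values ran closest to those of Set over the 4 arrays, by Euclidean distance after each gene's mean was subtracted, were P4ha2 (distance 0.029 log2 units), Gpn1 (0.037) and Stard4 (0.039). P4ha2 encodes a collagen prolyl hydroxylase subunit and differed by -0.50 (limma adjusted p = 0.042). Gpn1, a GTPase gene, differed by -0.47 (adjusted p = 0.057), and Stard4, which encodes a cholesterol carrier, by -0.52 (adjusted p = 0.042). With 4 arrays this likeness is a description and holds little more than the shared drop and the order of the control replicates.

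The promoters of Set and of the other genes with lower knockout arrays are shown to set their sequences side by side, since these genes have the same direction although only Set passed. The 250 bases before each annotated start are from RefSeq on the mouse build GRCm38.p6, 5′ to 3′ on the gene's strand, and Set has 2 such starts. Capitals mark matches on either strand to CCAAT (the CCAAT box), GGGCGG (the GC box) and CACGTG (an E-box), and no match overlaps another in the sequences printed.
Set, upstream start, chr2:30061746-30061995, plus strand: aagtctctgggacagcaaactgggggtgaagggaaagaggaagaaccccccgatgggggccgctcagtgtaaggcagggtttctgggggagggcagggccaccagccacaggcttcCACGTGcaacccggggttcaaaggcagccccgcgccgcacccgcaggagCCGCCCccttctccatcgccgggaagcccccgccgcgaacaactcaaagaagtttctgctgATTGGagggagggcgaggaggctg
Set, downstream start, chr2:30066224-30066473, plus strand: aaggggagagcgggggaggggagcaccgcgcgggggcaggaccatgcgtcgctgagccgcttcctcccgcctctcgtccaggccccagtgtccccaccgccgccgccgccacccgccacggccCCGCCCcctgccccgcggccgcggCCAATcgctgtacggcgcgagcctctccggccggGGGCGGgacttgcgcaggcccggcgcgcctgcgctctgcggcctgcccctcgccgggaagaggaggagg
Ensa, chr3:95624730-95624979, plus strand: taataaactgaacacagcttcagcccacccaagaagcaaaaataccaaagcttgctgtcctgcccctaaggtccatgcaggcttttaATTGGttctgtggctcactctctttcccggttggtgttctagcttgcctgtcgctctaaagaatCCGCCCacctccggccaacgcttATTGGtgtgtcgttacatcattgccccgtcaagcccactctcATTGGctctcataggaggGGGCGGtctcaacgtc
Anp32e, chr3:95929007-95929256, plus strand: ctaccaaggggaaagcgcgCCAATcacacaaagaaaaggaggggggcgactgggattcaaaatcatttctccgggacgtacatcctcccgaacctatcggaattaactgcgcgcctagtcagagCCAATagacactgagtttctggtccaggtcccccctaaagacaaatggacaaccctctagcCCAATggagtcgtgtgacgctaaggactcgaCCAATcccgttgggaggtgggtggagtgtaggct
Ppme1, chr7:100371897-100372146, minus strand: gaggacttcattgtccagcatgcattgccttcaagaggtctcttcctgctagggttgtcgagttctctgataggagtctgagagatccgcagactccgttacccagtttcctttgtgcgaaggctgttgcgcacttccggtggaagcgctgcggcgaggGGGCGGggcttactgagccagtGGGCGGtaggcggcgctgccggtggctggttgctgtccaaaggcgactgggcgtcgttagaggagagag

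Across the 9 genes, all of which were found in the RefSeq table with 13 starts in total, CCAAT occurred before at least 1 start of 6 genes and in 7 of the 13 windows, against 33.8% of all 32851 windows of the same length. It was present at both starts of Set, 4 times before Anp32e and 3 times before Ensa, but not before Ppme1, and 3 matches also lay before Anp32a, whose knockout arrays were higher. GGGCGG occurred before 6 of the 9 genes and in 8 of the 13 windows, against 32.7% of all windows, and CACGTG before Igbp1 and the upstream start of Set, against 6.02%. The full CRE letters TGACGTCA, found in 1.55% of windows, occurred before Tiprl alone among the 9, and the E2F forms TTTCCCGC and TTTGGCGC, in 1.30% of windows, before none. The 250 bases before the downstream start of Set were 79.6% G and C, against a median of 52.4% over all windows. The 13 windows are not all separate, since the 2 of Tiprl overlap almost fully and the 2 of Arpp19 in part. The same 4 GGGCGG matches of Tiprl thus count in 2 windows. These matches are letters in a window and not shown sites. CCAAT and GGGCGG both occurred before genes with lower and before genes with higher knockout arrays.

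Anp32a and Anp32e, paralogs whose products share a leucine-rich repeat part and an acidic tail, had differences of opposite sign, and neither passed. Anp32a, the gene of the inhibitor I1PP2A, read 5.46 and 5.63 in control and 5.67 and 5.78 in knockout. Both knockout arrays were above both control arrays, but the gap between the nearest arrays was smaller than the gap within either group. The difference was 0.18 (SE 0.10, 95% interval -0.08 to 0.44, adjusted p = 0.34), which did not pass. Anp32e, whose product also removes the histone variant H2A.Z from chromatin, read 7.45 and 7.58 in control and 7.28 and 7.23 in knockout. The difference was -0.26 (SE 0.09, 95% interval -0.49 to -0.02), with an adjusted p = 0.17. Both knockout arrays were below both control arrays. Values of different probes share no common scale, so for a pair of genes only the change of their within-array difference between genotypes is read here, in 3 pairs chosen after values were seen. Within each array, Anp32e minus Anp32a was 1.99 and 1.95 in control and 1.61 and 1.46 in knockout. The group means differed by -0.44. That the groups did not overlap follows from the values of both genes. The exact test over splits of the arrays (p = 0.33, its smallest possible value) cannot decide. Anp32b, a further paralog, read 10.49 and 10.53 in control and 10.30 and 10.39 in knockout. Its knockout arrays were both below the control arrays, and the difference of -0.17 (limma adjusted p = 0.31) did not pass.

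Ensa and Arpp19, closely related genes of the greatwall pathway, gave a like picture. Ensa read 7.16 and 7.20 in control and 6.88 and 6.89 in knockout. Its replicates were the closest together of the 9 genes, with a residual SD of 0.020 against a median of 0.099 over all tested genes, and all knockout values were below all control values. The difference was -0.29 (SE 0.08, 95% interval -0.50 to -0.08), or 1.22-fold lower, with an adjusted p = 0.11, which did not pass. With a stricter filter, which tests only genes with a mean of at least 5.74, the adjusted p was 0.039. Arpp19 read 5.27 and 5.20 in control and 5.34 and 5.47 in knockout. Its knockout arrays were higher, by 0.17 (SE 0.09, 95% interval -0.06 to 0.41, adjusted p = 0.32), which did not pass. Ensa minus Arpp19 within each array was 1.89 and 1.99 in control and 1.54 and 1.42 in knockout, a difference of -0.46 in the means. This again restates the values of both genes, and the exact test over splits of the arrays (p = 0.33, its smallest possible value) cannot decide. Mastl, the gene of the greatwall kinase that acts on both proteins, read 5.11 and 5.59 in control and 5.01 and 5.06 in knockout. Its control replicates were further apart than the group means, and the difference of -0.31 (SE 0.17, adjusted p = 0.31) did not pass. Ppp2r2a, which encodes a B55 subunit on which ENSA and ARPP19 act, differed by -0.03 (adjusted p = 0.90). Ensa and Anp32e lie on the same chromosome with 11 protein-coding genes between them in the RefSeq table of GRCm38.p6.

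The methylation enzymes act in opposite directions on the catalytic subunit. Ppme1, the gene of the methylesterase, read 7.97 and 8.07 in control and 7.80 and 7.70 in knockout. Both knockout arrays were below both control arrays, and the difference was -0.27 (SE 0.09, 95% interval -0.51 to -0.04), or 1.21-fold lower, with an adjusted p = 0.15, which did not pass. Lcmt1, the gene of the methyltransferase, read 6.90 and 6.84 in control and 6.87 and 6.99 in knockout, with overlapping groups and a difference of 0.06 (SE 0.09, 95% interval -0.18 to 0.29, adjusted p = 0.75). Ppme1 minus Lcmt1 was 1.07 and 1.24 in control and 0.93 and 0.72 in knockout. This within-array value, which adding a constant to a whole array cannot move, averaged 0.82 in knockout against 1.15 in control, and the groups did not overlap. The pair was chosen with its values known, and the exact test over splits of the arrays (p = 0.33, its smallest possible value) cannot decide. Methylation of the protein was not measured.

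**Figure D2:**
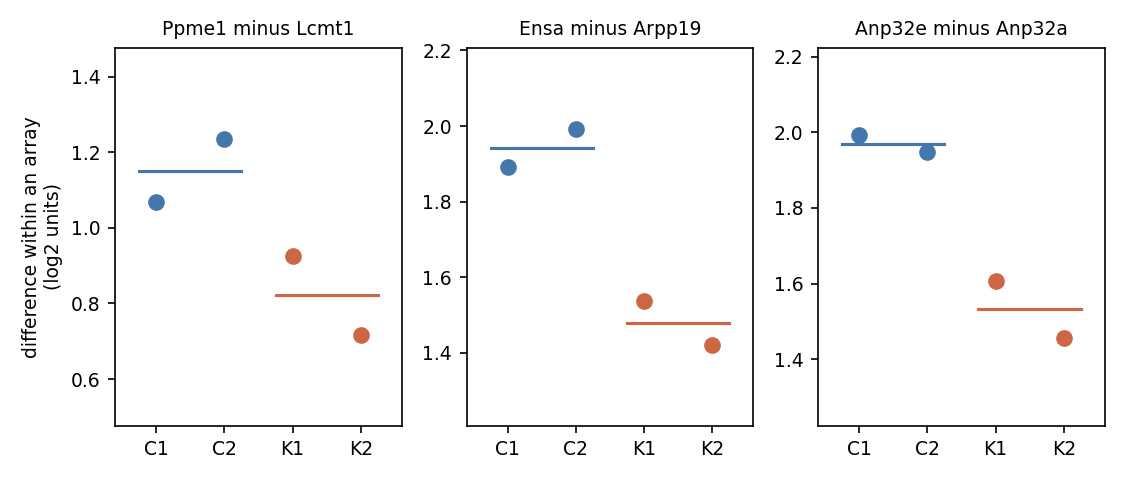
Difference in log2 units between 2 genes on the same array, for control arrays (C1, C2, blue) and knockout arrays (K1, K2, orange), with group means as lines and each panel spanning 1 log2 unit. The pairs were chosen after values were seen and are shown as a description. The control and knockout means are 1.15 and 0.82 for Ppme1 minus Lcmt1, 1.94 and 1.48 for Ensa minus Arpp19 and 1.97 and 1.53 for Anp32e minus Anp32a.

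The binders of free catalytic subunits did not pass the test. Tiprl read 6.78 and 7.06 in control and 7.13 and 7.26 in knockout. It had the widest spread among the 9 genes, and the difference of 0.27 (SE 0.12, 95% interval -0.04 to 0.59, adjusted p = 0.25) was no larger than the gap between the control replicates. Igbp1 read 8.53 and 8.44 in control and 8.49 and 8.43 in knockout, with overlapping groups. Its difference was -0.03 (SE 0.09), and the 95% interval of -0.25 to 0.20 corresponds to a knockout level between 0.84 and 1.15 times that of control. Igbp1 thus had the smallest difference of the 9, on arrays where the signal of Ppp2ca itself was far lower.

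**Figure D3:**
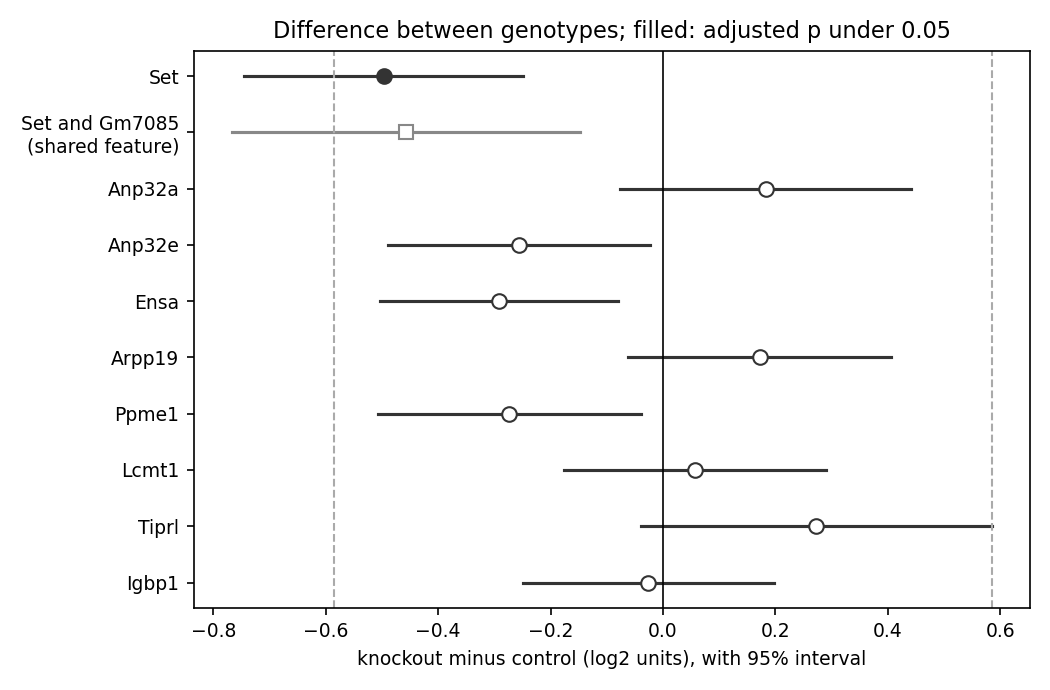
Knockout minus control in log2 units for the 9 genes (circles) and for the feature shared by Set and Gm7085 (square), with 95% intervals; dashed lines mark 1.5-fold. Set is the single filled symbol, at -0.50 with an adjusted p under 0.05, the intervals of Ensa, Ppme1 and Anp32e lie below 0 without passing after adjustment, and those of the other 5 genes include 0.

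Among the tested genes of the phosphatase subunits that these proteins act on, Ppp2ca alone passed. Of 16 tested genes of PP2A subunits, Ppp2ca fell, none rose and 15 did not pass, beside 6.79% of all tested genes that passed. The median was 0.0050. Ppp2cb, the gene of the remaining catalytic subunit, read 8.85 and 8.81 in control and 8.81 and 8.77 in knockout, a difference of -0.04 (95% interval -0.25 to 0.18, adjusted p = 0.83). The scaffold gene Ppp2r1a differed by -0.08 (adjusted p = 0.62). None of 9 tested genes of the PP4 and PP6 complexes passed, and 1 had an unadjusted limma p under 0.05, which 24.7% of all tested genes had. That gene was Ppp4r3b, at 0.33 (limma adjusted p = 0.092), higher on both knockout arrays. Among the 9 were the catalytic subunit genes Ppp4c, at -0.12 (adjusted p = 0.54), and Ppp6c, at 0.14 (adjusted p = 0.38), whose products bind alpha4 and TIPRL as well.

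The genes listed as other modulators of PP2A likewise had none that passed, 0 of 8 tested, with a median of -0.17. An unadjusted limma p under 0.05 was found for 2, Lcmt2 (-0.44), the lowest of the list, and Fam122b (0.27). Whether each listed gene acts on PP2A was not tested. Over all tested genes 6.79% passed and 24.7% had an unadjusted limma p under 0.05, so the counts of 0 and 2 are near the general share. All 8 had groups that did not overlap, beside the 55.3% of all tested genes. The 6 that were lower stand beside 26.5% of all tested genes, and the 2 that were higher beside 28.8%. The SET complex and H2A.Z exchange list, which holds known partners of SET, ANP32A and ANP32E, had 0 of 10 tested genes passing and a median of -0.02, with 7 differences negative and 3 positive. An unadjusted limma p under 0.05 was found for 2 of them, Ruvbl1 (-0.56) and Ruvbl2 (-0.36). Nme1 differed by -0.67, with control replicates far apart (5.26 and 4.25). The listed symbols Apex1, Nme2, Trex1, H2afz, H2afv and Actl6a had no feature of their own, so this list was covered only in part.

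Some of the listed genes of dividing cells fell in knockout macrophages, and others did not pass. Of 15 tested proliferation markers, 8 fell and none rose, where 3.49% of all tested genes fell, and the median was -0.59 against 0.0076 over all tested genes. Both knockout arrays were below both control arrays for 13 of the 15, against 26.5% of all tested genes. The groups of Pcna and Tyms overlapped. Mki67 differed by -0.17 (limma adjusted p = 0.32) and did not pass. Cell cycle genes were already known to be lower in earlier results of these data, so this count is not independent evidence. Rrm2 of ribonucleotide reductase differed by -1.04 (SE 0.12), the replicative helicase genes Mcm2 and Mcm5 by -0.87 and -0.72, and the mitotic kinase gene Cdk1 by -0.86. With any 1 array left out these 4 calls were lost, and averaged over all features of the gene Rrm2 differed by -0.48. Summed on the linear scale over 16 genes, the markers stood at 5527 and 5211 in control and 4510 and 4450 in knockout, a sum led by the bright probe of Pcna, which differed by -0.02 (limma adjusted p = 0.90). Of 10 tested mitotic entry genes, Cdk1 and the Cdk-activating phosphatase gene Cdc25a, at -0.57, fell, none rose, and the median was -0.25. The groups of 4 overlapped, among them Aurka (0.02), Ccnb2 (-0.03) and Plk1 (-0.18). The call of Cdc25a was also lost with any 1 array left out (limma adjusted p = 0.069 to 0.18), with no filter (0.088) and without pooling of variance (0.24). Set, Ensa, Ppme1 and Anp32e were lower on the same arrays, and the part of cell division in their values was not tested. Of 5 tested monocyte markers 3 rose, beside 3.30% of all tested genes, and 1 fell, beside 3.49%. Ms4a4c, at 1.50 (limma adjusted p = 0.0051), the chemokine receptor gene Ccr2, at 0.83 (0.014), and Ly6c2, at 0.76 (0.026), rose. The coagulation factor gene F13a1, at -0.79 (limma adjusted p = 0.016), fell. Cx3cr1, at 0.43 (limma adjusted p = 0.072), was higher on both knockout arrays and did not pass. The summed level of the 5 markers was 1236 and 1354 in control and 1290 and 1353 in knockout. The probe with the most weight in that sum was F13a1 in control (9.63 and 9.76). In knockout it was Ccr2 (9.15 and 9.18), above F13a1 (8.86 and 8.97). The part of monocytes in the values of the 9 genes was not tested.

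**Figure D4:**
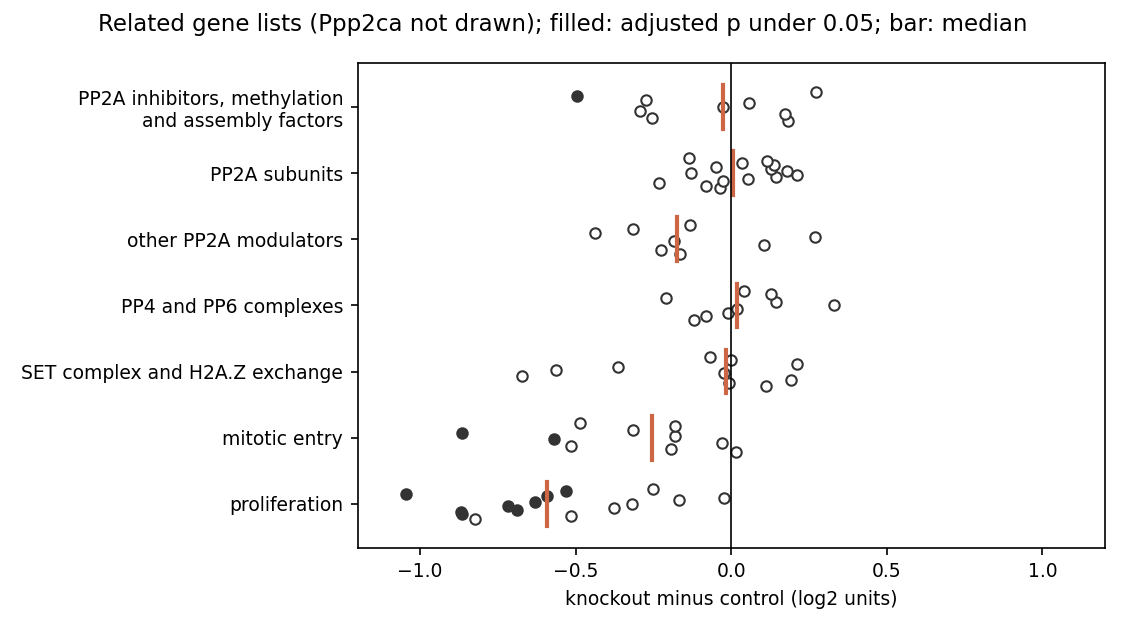
Knockout minus control in log2 units for each tested gene of the 9 regulators and of 6 related lists (points, filled where the adjusted p was under 0.05), with the list median as an orange bar; Ppp2ca, at -4.04, is not drawn but counts in its list's median. The 9 regulators scatter on both sides of 0 with a median of -0.03, the PP2A subunits have a median of 0.0050, and the proliferation markers lie below 0 with a median of -0.59.

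**Figure D5:**
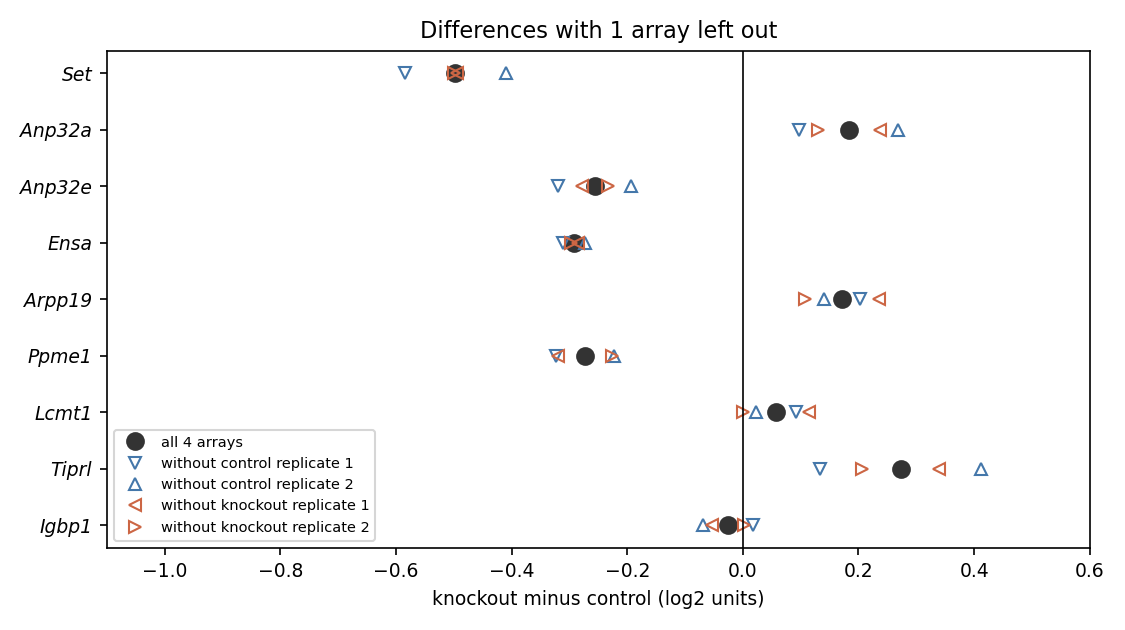
Knockout minus control in log2 units for the 9 genes with all 4 arrays (filled circles) and with 1 array left out (open triangles, blue for a control array and orange for a knockout array). Set ranges from -0.59 to -0.41, Tiprl from 0.13 to 0.41, and Lcmt1 and Igbp1 are the genes whose difference changes sign.

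The size of each difference depended unevenly on single arrays. With 1 array left out, Ensa ranged from -0.31 to -0.27, the narrowest span of the genes with groups apart, Ppme1 from -0.32 to -0.22 and Anp32e from -0.32 to -0.19. Arpp19 ranged from 0.11 to 0.24 and Anp32a from 0.10 to 0.27. Tiprl, the least stable, ranged from 0.13 without control replicate 1 to 0.41 without control replicate 2. The smallest difference in any gene that passed was 0.42 in size with the filter used here. Those of Ensa, Ppme1, Anp32e and Tiprl were smaller, and of these Ensa passed with the stricter filter.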

How the data were processed

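RNA of 4 cultures was hybridised to 1-colour Affymetrix whole-transcript arrays, starting from 400 ng of total RNA, per the labels' protocols. Per the series' design text, the authors computed log2 values by RMA with background adjustment and normalization; oligo is a tool listed in the submitters' processing notes with no version. The genome build is not given in the sources used here. Normalization removes any change in total RNA per cell, dim features understate differences, and probes can read paralogs or pseudogenes. The number of arrays limits the precision.

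Of 41345 deposited features, 23521 had 1 symbol in the platform annotation, 1814 had several and 16010 had none listed. The feature with the highest mean stood for a gene, and genes with a mean at or above the median feature (3.53) were tested. Gene IDs of the 9 genes matched the RefSeq table of GRCm38.p6, with 0 symbols changed. The genotypes were tested in R 4.3.3 by limma 3.58.1 (a linear model with moderated variances and no block; 2 residual and 3.51 prior degrees of freedom), two-sided, with Benjamini-Hochberg adjustment over all 12542 genes; passing, rising and falling mean an adjusted p under 0.05. Unadjusted p-values are named as such. The scripts were tested on simulated data.

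The members and gene lists were chosen with earlier results of these data known. The naming rule took the 9 genes, Ppp2ca, Ppp2cb, Ppp2r1a, Ppp2r2a, Mastl, Ppp4c and Ppp6c. It also took up to 4 genes per related list that passed, and the 3 genes nearest to any of the 9 that passed. Markers of cell types and the shared feature are named besides. The feature, the within-array pairs and further genes of the related lists, among them Anp32b and Pcna, were added after values were seen. Alternatives covered filters, normalization, feature choice, variance models, array weights, the replicate number as a block and each array left out.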

Additional observations from a re-analysis of the deposited data

How the results depend on the processing

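The fall of Set kept its direction under all 15 alternatives run, but few of these could have turned it. Filters, variance models, array weights, the block and averaging of features (Set has 1 of its own) left the difference of -0.50 itself unchanged. With both knockout arrays below both control arrays, leaving 1 array out could not turn it either. The call held in 7 of the 15 alternatives: array weights, robust variances, an intensity trend, averaged features, median-centred or quantile-normalized arrays and the stricter filter. The difference of -0.50 stayed the same but did not pass with no filter (adjusted p = 0.11), without pooling of variance (0.23), with every feature tested on its own (0.16) and with the replicate number as a block (0.092). Same-numbered arrays did not deviate together (r = -0.04 across genes). With 1 contrast in each genotype, this cannot show whether same-numbered cultures were handled together. The replicate block gave 0 of the 9 genes and 312 genes in all. The number of the 9 genes that passed was 0 with no filter, without pooling and with features on their own, and 2 with the stricter filter, where Ensa joined Set and Anp32a and Arpp19 were not tested. Over all genes 333 passed with no filter, 1487 with the stricter filter, 1584 with the intensity trend, 0 of 12542 by limma without pooling (2295 at an unadjusted p under 0.05; 852 with pooling) and 15 with features on their own. With 1 array left out, Set ranged from -0.59 to -0.41 and 96 to 174 genes passed, with 0 of the 9 each time; 0 to 1 of the 9 reached 1.5-fold, Set without control replicate 1. The sign turned for Lcmt1 (-0.00046 without knockout replicate 2, range up to 0.12), Igbp1 (0.017 without control replicate 1 and 0.0018 without knockout replicate 2, range down to -0.069) and Ppp2r2a (0.029 without knockout replicate 1, range down to -0.080), none of which passed. The feature shared by Set and Gm7085, added after seeing the data, ranged from -0.55 to -0.36 over 13 alternatives and passed in none. The cause of each lost call was not tested.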
